A study of Mus musculus with 16 samples.

Results

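Splicing removes introns from newly made transcripts in the nucleus. Small nuclear ribonucleoproteins (snRNPs), each a small nuclear RNA held in a ring of Sm proteins, recognise the intron ends, Prpf proteins help to build and remodel the spliceosome, and SR proteins and heterogeneous nuclear ribonucleoproteins (hnRNPs) bind the transcript and steer the choice of splice sites. The proteins act mostly in the nucleus, but their mRNAs are translated in the cytoplasm, and several hnRNPs accompany mRNAs there. The mRNAs of these proteins were followed here between protrusions and cell bodies of a mouse fibroblast line, with and without knockdown of Apc, the mouse gene for the tumour suppressor adenomatous polyposis coli. Members were taken by name: symbols that begin with Hnrnp, Srsf, Sf3, Snrp or Prpf, plus Srrm1 and Srrm2, without pseudogene names. This gave 65 of the 13015 listed genes, which were sorted by role into 7 Sm core proteins, 13 proteins particular to the U1 or U2 snRNP, 12 SR proteins, 13 Prpf proteins and 20 hnRNPs.

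The cells were NIH/3T3, an established mouse embryonic fibroblast line, and every group was serum-starved, plated for 2 h on a filter with 3.0 µm pores, exposed to lysophosphatidic acid (LPA, a lipid attractant) from below for 1 h and fixed in 0.3% paraformaldehyde for 10 min. Material above the filter made up the cell body fraction (CB) and material that had grown through the pores made up the protrusion fraction (Ps). Cells had received a control siRNA (siControl) or siRNA against Apc (siAPC), so that CB and Ps under each siRNA formed 4 groups with 4 libraries apiece. Replicates are numbered samples of 1 cell line in which Apc RNA was lowered and not deleted, so p-values measure the spread between these samples, which may in part be technical.

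Values were log2 CPM, the log2 of the reads of a gene relative to the size of its library (CPM), after scaling between libraries by the authors. The libraries held 13466225 to 20296087 reads in listed genes. Apc fell to 31.3% of its siControl level in CB (adjusted p = 0.000142, limma) and to 27.9% in Ps (adjusted p = 3.11e-05, limma). Of the fibroblast markers 8 of 8 were listed, with Thy1 near the detection floor at -2.31 log2 CPM in siControl CB, and 3 of 9 markers of other cell types were listed, at means of -1.49 to 2.19 over all libraries. Mitochondrial transcripts held 1.37% to 1.95% of reads in CB libraries and 2.18% to 4.16% in Ps libraries. In 4 libraries (replicate 3 of siControl CB and replicate 2 of each other group) values fell with the GC content of a gene relative to the other replicates (Spearman correlation -0.54 to -0.66 over 10238 genes). The other 12 libraries ran from -0.04 to 0.54. The main results are also given without those 4 libraries. The part of these differences in the results was not tested.

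The 2 ends of the distribution between Ps and CB were mRNAs with a very short and a very long coding sequence. Coding bases of both are shown for that reason, as DNA from GENCODE release M21 on GRCm38. Snrpg, on the plus strand at chr6:86371304-86379328, encodes the Sm protein G and has 231 coding bases with the stop codon. In its coding sequence the start and stop codons are in capitals.
Snrpg: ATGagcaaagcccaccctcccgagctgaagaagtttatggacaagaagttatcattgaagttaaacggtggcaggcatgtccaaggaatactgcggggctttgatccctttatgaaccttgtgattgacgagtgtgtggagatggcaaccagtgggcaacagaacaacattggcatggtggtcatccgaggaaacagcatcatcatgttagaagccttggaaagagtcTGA
Srrm2, on the plus strand at chr17:23790532-23824741, encodes a large SR-related protein of the nuclear speckles, and Srsf3, on the plus strand at chr17:29032628-29043373, a small SR protein. Both are rich in adjacent arginine and serine codons, and the 30 codons of each with most such pairs are shown, with the paired codons in capitals (coding bases 1888 to 1977 of Srrm2 and 388 to 477 of Srsf3).
Srrm2: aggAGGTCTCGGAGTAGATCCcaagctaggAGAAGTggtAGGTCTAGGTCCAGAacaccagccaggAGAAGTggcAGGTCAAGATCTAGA
Srsf3: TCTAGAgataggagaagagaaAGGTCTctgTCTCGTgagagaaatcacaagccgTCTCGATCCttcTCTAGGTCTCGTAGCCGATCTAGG
The Srrm2 stretch held 15 such pairs and the Srsf3 stretch 12. Over whole coding sequences the SR proteins had a median of 13.9 pairs per 100 codons (range 4.05 to 23.5). The other roles had medians of 0 to 0.995, with Prpf38b the highest of their members at 9.96.

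The first comparison asked where these mRNAs lay in control cells. In siControl cells the Sm core mRNAs were all higher in Ps, several SR protein mRNAs were lower in Ps, and the other roles were divided. Of the 65 members, 30 (46.2%) were higher in Ps at an adjusted p below 0.05 (limma), where 29.1% of all tested genes were higher. Another 15 members (23.1%) were lower in Ps, where 31.2% of all genes were lower, and 20 members passed in neither direction. The siControl counts by role below are to be read beside these shares of all genes. The median Ps/CB log2 fold change was 0.20 over the members and 0.00 over all genes. Levels are relative to the RNA collected in a fraction, so fewer protrusions on a filter and less RNA per protrusion cannot be told apart.

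**Figure D1:**
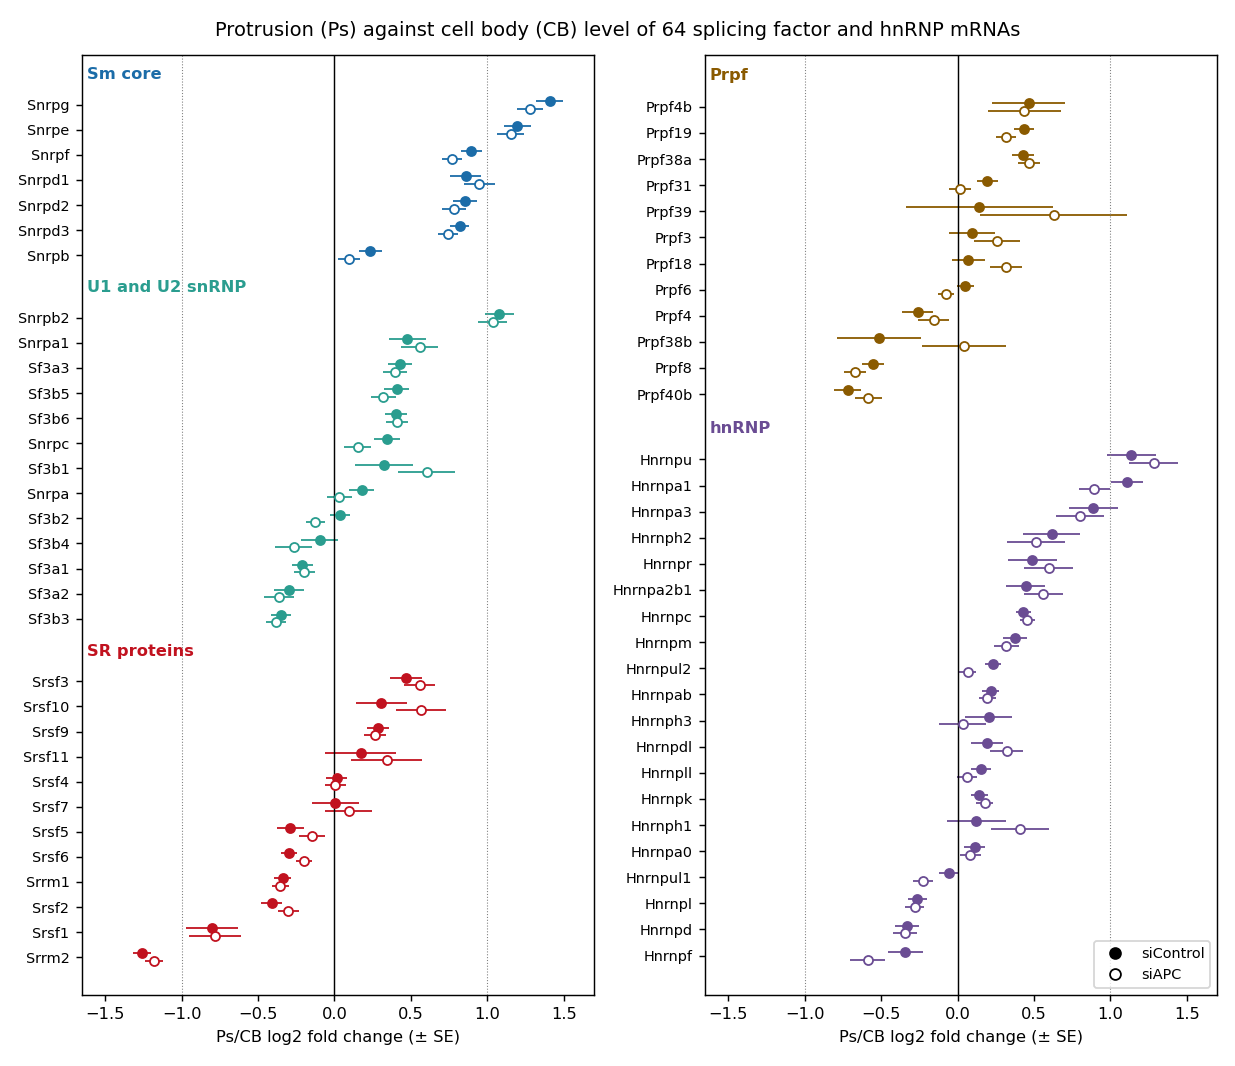
Ps/CB log2 fold change of 64 members (horizontal axis, ± SE of the limma contrast, n = 4 libraries a group), by role, in siControl (filled) and siAPC (open). The dotted lines mark 2-fold, and the points run from Srrm2 at -1.26 to Snrpg at 1.41 in siControl.

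The direction of these counts depended on how libraries were scaled. Scaled to total listed reads, without the scaling factors of the authors, 11 members were higher and 22 lower in Ps, with 15.4% and 47.6% of all genes higher and lower. The medians then were -0.10 over the members and -0.30 over all genes, a shift that is the same for every gene. With a loess fit on GC content and transcript length removed from each library, 23 members were higher and 12 lower, with 29.3% and 25.6% of all genes higher and lower and medians of 0.08 over the members and 0.03 over all genes. Summed over the members, the share of reads was 0.717% to 0.785% in siControl CB libraries and 0.606% to 0.683% in siControl Ps libraries, with no overlap. When the 4 GC-trend libraries were left out, 36 members were higher and 14 lower, where 30.7% and 31.6% of all genes were. Along with these differences, the nuclear RNAs Malat1 and Neat1 fell in Ps by 2.77 and 1.76 on the log2 scale (adjusted p = 1.59e-06 and 1.52e-05, limma), and their part in the members' values was not tested.

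The Sm core forms the ring around the small nuclear RNAs, and all 7 of its measured members were higher in Ps (median log2 fold change 0.86). Snrpg stood at 5.82, 5.94, 5.62 and 5.82 log2 CPM in siControl CB replicates 1 to 4. In siControl Ps it stood at 7.43, 7.34, 7.05 and 7.00. Every Ps library lay above every CB library, a log2 fold change of 1.41 ± 0.09 (SE, adjusted p = 1.84e-10, limma), or 2.65-fold. Snrpe, the Sm protein E, was 1.20 ± 0.09 higher on the log2 scale and Snrpf, the Sm protein F, 0.90 ± 0.07. The 3 Sm D proteins rose by 0.86 for Snrpd1, 0.86 for Snrpd2 and 0.82 for Snrpd3. Snrpb, which encodes the Sm proteins B and B′, had the lowest value of the ring at 0.24 ± 0.07 (adjusted p = 0.0105, limma). Its siControl CB libraries read 8.24, 8.26, 7.98 and 8.19, its siControl Ps libraries 8.42, 8.25, 8.50 and 8.44, and the ranges overlapped. Snrpb lost its call and stood at -0.06 when scaled to total reads, where the other 6 Sm core mRNAs were still higher. With the fit on GC content and length removed, 3 of the 7 were higher and the median was 0.16. There Snrpe (0.16) and Snrpb lost their calls, and Snrpf (-0.07) and Snrpd1 (-0.03) turned in sign without passing.

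Among proteins particular to the U1 and U2 snRNPs, 6 of 13 mRNAs were higher in Ps, 3 were lower and the median was 0.32, but scaled to total reads 1 was higher and 5 lower, with a median of 0.03. Snrpb2, the U2 protein B″, read 4.21, 4.12, 4.37 and 4.23 in siControl CB and 5.41, 5.49, 5.14 and 5.20 in siControl Ps. These ranges were apart, with a log2 fold change of 1.08 ± 0.10 (SE, adjusted p = 1.53e-08, limma). Snrpa1, its partner on the U2 small nuclear RNA, rose by 0.48. The Snrpa1 call was lost when scaled to total reads and with the fit on GC content and length removed (0.15). The U2 subunits Sf3a3, Sf3b5 and Sf3b6 rose by 0.43, 0.41 and 0.40, and Snrpc, the U1 protein C, by 0.34. At the other end lay Sf3b3, a scaffold of the SF3B complex that holds the branch point, with 7.90, 7.87, 7.82 and 7.88 in siControl CB and 7.36, 7.40, 7.67 and 7.63 in siControl Ps. Every Ps library of Sf3b3 lay below every CB library, and it fell by 0.35 (SE 0.07, adjusted p = 0.000135, limma). Sf3a2 fell by 0.30 and Sf3a1 by 0.21. With the fit on GC content and length removed, Sf3a2 stood at 0.17, Sf3a1 at 0.06, Sf3b6 at -0.22 and Snrpc at -0.18, each opposite in sign to its value here, and Sf3a2 and Sf3b6 passed in that direction (adjusted p = 0.0101 and 0.0356, limma). Sf3b1, the subunit that grips the branch point, had a value of 0.32 ± 0.19 and did not pass (adjusted p = 0.147, limma), nor did Snrpa at 0.18, Sf3b2 at 0.04 and Sf3b4 at -0.10.

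SR proteins bind exonic enhancers through an RNA recognition motif and recruit the splicing machinery through an arginine-serine domain, and Srrm1 and Srrm2 are coactivators with such a domain. Of the 12 mRNAs, 6 were lower in Ps and 2 higher, with a median of -0.14, and scaled to total reads 7 were lower and 0 higher, with a median of -0.44. Srrm2 read 8.45, 8.39, 8.63 and 8.50 in siControl CB and 7.13, 7.24, 7.24 and 7.32 in siControl Ps. The groups were more than 1 log2 unit apart in every library, and Srrm2 fell by 1.26 (SE 0.06, adjusted p = 1.22e-11, limma), to 0.418 of its CB level. Srsf1, a founding SR protein, fell by 0.80, but at 31 to 179 reads per library it was the second least covered member. Srsf2 fell by 0.41, Srrm1 by 0.34, Srsf6 by 0.30 and Srsf5 by 0.29. Srrm1 stood at -0.07 and lost its call with the fit on GC content and length removed. The 2 that rose were Srsf9 at 0.28 and Srsf3 at 0.47. Srsf3 read 7.11, 7.15, 7.01 and 7.00 in siControl CB and 7.64, 7.74, 7.36 and 7.40 in siControl Ps, with no overlap (SE 0.10, adjusted p = 0.000658, limma). Both lost their calls when scaled to total reads (Srsf3 at 0.17, Srsf9 at -0.01) and with the fit on GC content and length removed, where Srsf3 stood at -0.04. Srsf4, Srsf7, Srsf10 and Srsf11 did not pass, at 0.02, 0.01, 0.31 and 0.17.

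Prpf proteins carry the names of yeast pre-mRNA processing factors. Of 13 mRNAs, 4 (30.8%) were higher in Ps, near the 29.1% of all genes. Another 3 (23.1%) were lower, where 31.2% of all genes were, and the median was 0.09. Scaled to total reads 0 were higher and 5 lower (median -0.20), and with the fit on GC content and length removed 4 were higher and 0 lower (median -0.02). Prpf40b, a U1-associated protein, had the lowest value of the role and read 5.46, 5.34, 5.31 and 5.33 in siControl CB and 4.77, 4.71, 4.55 and 4.55 in siControl Ps. These did not overlap, and Prpf40b fell by 0.72 (SE 0.09, adjusted p = 1.23e-06, limma), a call lost with the fit on GC content and length removed (-0.20). Prpf8, the central scaffold of the spliceosome, fell by 0.55 (-0.13 and not called with that fit removed) and Prpf4, of the U4/U6 snRNP, by 0.26, a call lost in 6 of 16 settings, among them without replicate 2 or 4 of siControl CB or replicate 1 of siControl Ps. Prpf19, a ubiquitin ligase needed for spliceosome activation, rose by 0.43, Prpf38a by 0.43 and Prpf31 by 0.20, but Prpf38a stood at -0.02 with that fit removed and Prpf31 at -0.10 when scaled to total reads.

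The hnRNPs coat nascent transcripts and take part in splicing, export, stability and translation. Of 20 mRNAs, 11 were higher in Ps, 3 lower and 6 passed in neither direction, with a median of 0.21. Scaled to total reads 4 were higher and 5 lower, with a median of -0.09. With the fit on GC content and length removed 9 were higher and 4 lower, with a median of 0.16. Hnrnpk, higher by 0.14 in the main fit, passed there as lower (-0.21, adjusted p = 0.0446, limma). Its call was lost in 8 of 16 settings. Hnrnpu, a nuclear scaffold protein, had the highest value. Hnrnpu read 4.46, 4.52, 4.80 and 4.42 in siControl CB and 5.62, 6.13, 5.38 and 5.61 in siControl Ps. The ranges were apart, at a log2 fold change of 1.14 ± 0.16 (SE, adjusted p = 5.62e-06, limma). Hnrnpa1, a shuttling repressor of splice sites, rose by 1.11, with 7.90, 7.77, 8.22 and 7.84 in siControl CB and 9.27, 9.01, 8.95 and 8.93 in siControl Ps. Its relatives Hnrnpa3 and Hnrnpa2b1 rose by 0.89 and 0.45 (Hnrnpa2b1 at -0.03 with the fit on GC content and length removed), and Hnrnpa0 had 0.11 and did not pass. Hnrnpc, which binds uridine-rich tracts, rose by 0.43 (SE 0.05), and with the fit on GC content and length removed it had 0.08 and did not pass. The 3 that were lower were Hnrnpf at -0.34, Hnrnpd at -0.33 and Hnrnpl at -0.26. Hnrnpf, a binder of G-rich tracts, read 6.50, 6.44, 6.54 and 6.58 in siControl CB and 6.08, 5.87, 6.36 and 6.38 in siControl Ps. Its Ps libraries lay below the CB libraries, but without replicate 2 of siControl Ps the call was lost (-0.24, adjusted p = 0.0694, limma). Its paralog Hnrnph2 rose by 0.62. The Hnrnph2 call was lost when scaled to total reads and with the fit on GC content and length removed (0.22).

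**Figure D2:**
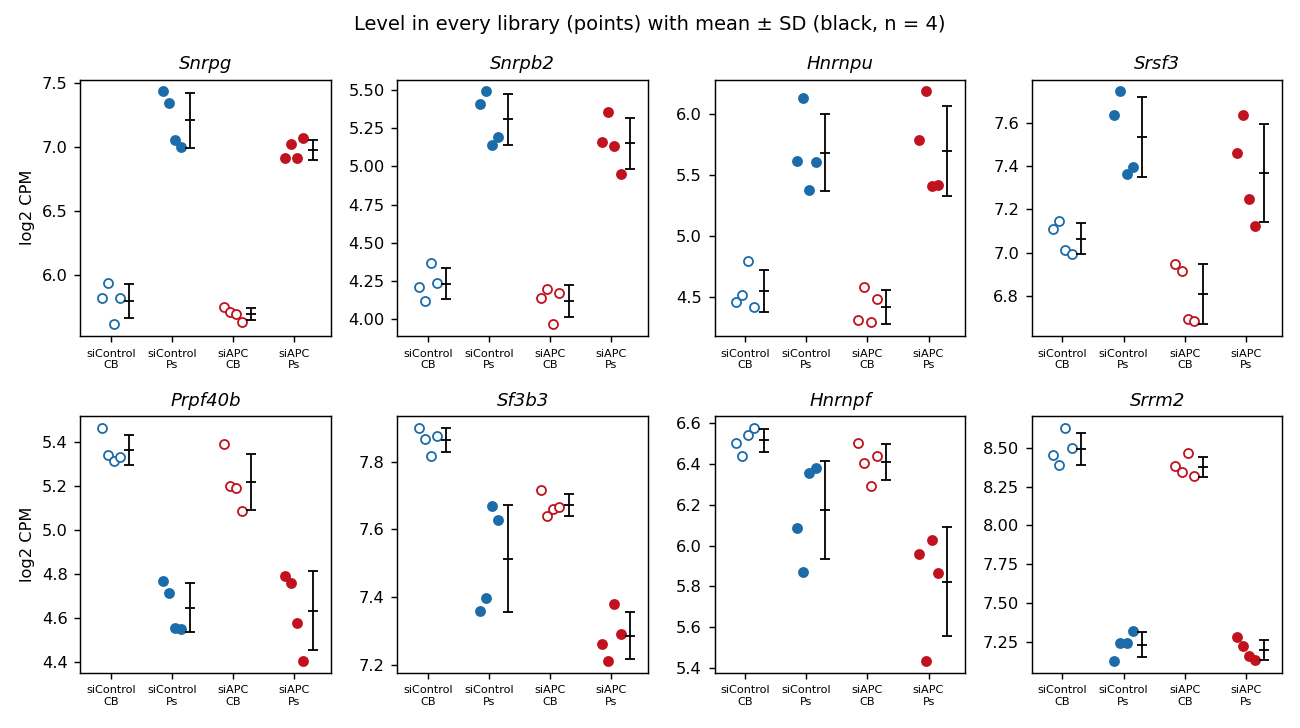
Level of 8 members in each of the 16 libraries (points, vertical axis in log2 CPM, axes do not start at 0) with mean ± SD (n = 4) by group. Snrpg, Snrpb2, Hnrnpu and Srsf3 lie higher in Ps, and Prpf40b, Sf3b3, Hnrnpf and Srrm2 lower.

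By the stricter rule of a fold change above 2 with an unadjusted p below 0.05, 5 members were Ps-enriched in siControl: Snrpg, Snrpe, Snrpb2, Hnrnpu and Hnrnpa1. That was 7.69% of members, where 7.19% of all genes met the rule, a share near the background. Srrm2 alone was CB-enriched, 1.54% of members where 6.82% of all genes met the mirror rule. In siAPC the same rule gave Snrpg, Snrpe, Snrpb2 and Hnrnpu as Ps-enriched (6.15% of members, 7.67% of all genes), with Hnrnpa1 just under 2-fold at a log2 fold change of 0.90, and again Srrm2 as CB-enriched (1.54% of members, 5.05% of all genes).

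The order of the Ps/CB ratios followed coding length about as it did over all genes. Spearman's correlation of the siControl Ps/CB log2 fold change with coding length was -0.41 across the 65 members and -0.38 across 9808 coding genes with a mean of at least 1 log2 CPM. Genes are not independent replicates, and all points share the same libraries. Members with under 500 coding bases were higher in Ps in 10 of 10 cases, where 76.1% of the 901 such genes were. From 500 to 1000 bases 7 of 14 members were higher and 3 lower, where 45.1% and 23.1% of such genes were. From 1000 to 2000 bases 9 of 25 were higher and 6 lower, where 23.1% and 41.2% of such genes were. Over 2000 bases 4 of 16 were higher and 6 lower, where 14.6% and 50.6% of such genes were. The Sm core had a median of 354 coding bases without the stop codon, the SR proteins 775, the U1 and U2 proteins 1272, the hnRNPs 1303 and the Prpf proteins 1995. Length did not order every member: Hnrnpu has 2400 coding bases and was higher in Ps, and Srsf1 has 744 and was lower. The correlation with GC content was -0.36 across the members and -0.39 across all those genes. In siAPC it was -0.51 and -0.50, where the correlation with coding length was -0.37 and -0.37. The number of arginine-serine codon pairs per 100 codons had a correlation of -0.33 with the Ps/CB value over the 65 members. Within roles it was -0.24 (12 SR proteins), -0.23 (13 U1 and U2 proteins), 0.01 (13 Prpf proteins), 0.10 (20 hnRNPs) and 0.41 (7 Sm core proteins). In the Sm core only Snrpe had any such pair, so the value there rests on Snrpe alone. Among the U1 and U2 proteins Sf3a3, Sf3b4, Sf3b5, Sf3b6 and Snrpc had none and were tied.

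**Figure D3:**
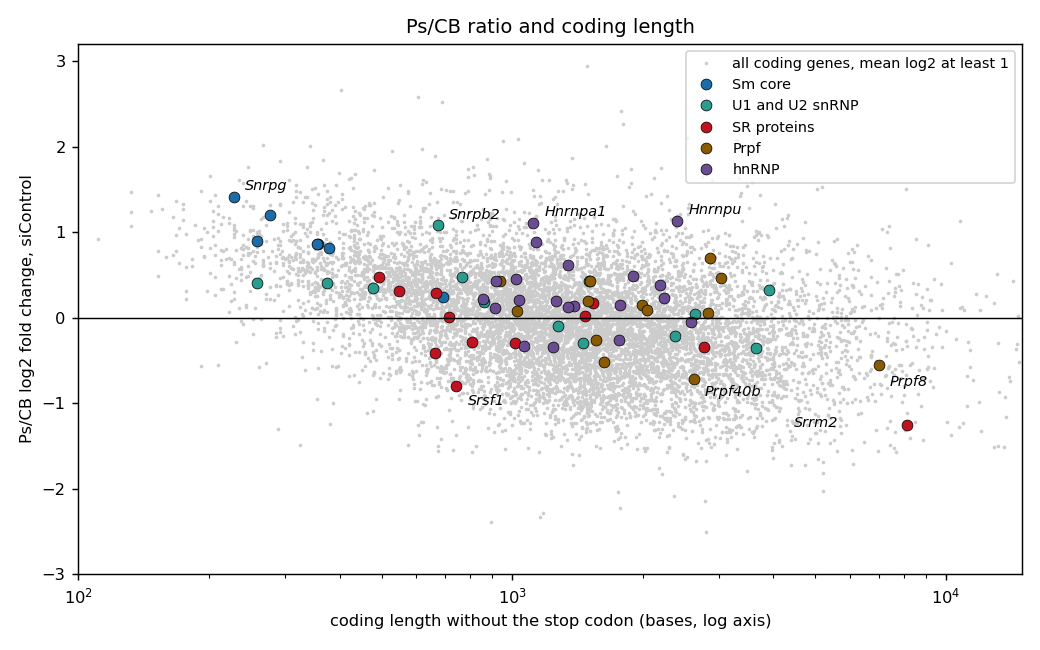
Ps/CB log2 fold change in siControl (vertical axis) against coding length in bases without the stop codon (horizontal, log axis) for the 65 members, coloured by role, over 9808 coding genes in grey. Members with under 500 coding bases all lie above 0, and Srrm2 with 8109 bases lies lowest.

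Levels of different genes were compared per kb of exonic sequence, on a log2 CPM per kb scale. In siControl CB the highest members were Snrpb at 7.19, Srsf2 at 6.59 and Hnrnpab at 6.44, and the lowest was Prpf39, a U1-associated protein, at -2.24. In siControl Ps the highest were Snrpb at 7.42, Hnrnpa1 at 7.38 and Snrpf at 7.14. The exonic sequence of all transcripts of a gene served as its length, which lowers the value of genes with many alternative exons.

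Other splicing genes, a list of 82 measured genes outside these name families, were described in the same way. Of these, 43 (52.4%) were higher in Ps and 14 (17.1%) lower in siControl, where 29.1% and 31.2% of all genes were. The median was 0.29. Counts of this list under the other scalings, which changed those of the members, are not given here. Lsm5, a subunit of the Sm-like ring of U6, had the highest value at 1.20, and Clk2, a kinase of SR proteins, the lowest at -1.15.

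The comparison of Ps with CB was repeated in APC knockdown cells. In siAPC, 30 members were higher in Ps and 14 lower, where 29.8% and 30.9% of all genes were, with a median of 0.26. Of the members higher in Ps, 26 were so under both siRNAs, as were 13 of those lower, and 0 were called in opposite directions. The same overlap over all genes is not given here, so these counts are not compared with a background and are no result particular to the members. Only in siControl, Snrpb, Prpf31, Snrpc and Hnrnpul2 passed as higher and Prpf4 and Srsf5 as lower. Only in siAPC, Sf3b1, Prpf18, Srsf10 and Hnrnpdl passed as higher and Hnrnpul1 as lower, and with the fit on GC content and length removed Hnrnpul1 passed as higher (0.19, adjusted p = 0.00742, limma). The test of the difference, given next, passed for none of these.

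In siAPC the Sm core had the highest median of the roles, 0.78, although with the fit on GC content and length removed it had 0.09, below the hnRNPs (0.14) and the U1 and U2 proteins (0.11). Snrpg read 5.75, 5.71, 5.70 and 5.64 in siAPC CB and 6.91, 7.02, 6.91 and 7.07 in siAPC Ps, a log2 fold change of 1.28 with no overlap. Snrpe had 1.15, Snrpd1 0.95, Snrpd2 0.78, Snrpf 0.77 and Snrpd3 0.74, and Snrpb had 0.10 and did not pass. With that fit removed Snrpe stood at 0.09, Snrpd1 at 0.03 and Snrpf at -0.23, and none of these passed. Srrm2 read 8.38, 8.35, 8.47 and 8.32 in siAPC CB and 7.28, 7.23, 7.16 and 7.13 in siAPC Ps, and fell by 1.18. Hnrnpu had 1.28, Snrpb2 1.03, Hnrnpa3 0.80 and Srsf3 0.56. Srsf3 turned to -0.12 with that fit removed and did not pass. Snrpb2 (0.27) and Hnrnpa3 (0.34) were smaller there and were still called. Lower in Ps were Srsf1 at -0.78, Prpf8 at -0.67, Hnrnpf at -0.59 and Prpf40b at -0.58. The Prpf40b call was lost with that fit removed (-0.05), and Prpf8 stood at -0.23 there and was still called. Scaled to total listed reads, 21 members were higher and 19 lower in siAPC Ps, where 21.5% and 39.3% of all genes were, and the members' median was 0.10 against -0.14 for all genes. Without the 4 GC-trend libraries 36 were higher and 14 lower, where 30.1% and 30.9% of all genes were. With the fit on GC content and length removed 22 were higher and 16 lower, where 26.2% and 24.3% of all genes were, and the median was 0.06.

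Whether APC knockdown altered the Ps/CB ratio was tested by the difference of the 2 log2 fold changes, log2(Diff FC), siAPC minus siControl. No member passed: 0 were higher and 0 lower by limma at an adjusted p below 0.05, where 0% and 0.0231% of all genes were, and 1 member, Hnrnpul2, had an unadjusted p below 0.05. The members' median was -0.02, and the lowest adjusted p was 0.981 (limma). The most negative values were Hnrnpf at -0.24 ± 0.16 and Hnrnpa1 at -0.21 ± 0.15 (SE). Hnrnpf in siAPC read 6.50, 6.41, 6.29 and 6.44 in CB and 5.96, 5.43, 6.03 and 5.87 in Ps, with the lowest value in Ps replicate 2. The most positive were Prpf38b at 0.56 ± 0.39 and Prpf39 at 0.49 ± 0.68, a pair of low mRNAs with 67 to 393 and 21 to 182 reads per library. Prpf38b read 2.64, 2.66, 4.08 and 2.47 in siControl CB, 2.44, 2.66, 2.35 and 2.33 in siControl Ps, 2.30, 3.04, 2.57 and 2.76 in siAPC CB, and 2.72, 3.26, 2.48 and 2.38 in siAPC Ps. Only replicate 3 of siControl CB stood apart, and without it log2(Diff FC) was 0.18. Prpf39 likewise had 2.97 in that library, where the other siControl CB libraries had 0.99, 0.98 and 0.40, and without it log2(Diff FC) was -0.06. The SE of log2(Diff FC) ran from 0.07 for Hnrnpc to 0.68 for Prpf39, so small differences were not detectable for the members with a large SE.

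Within CB, the level after APC knockdown was compared with that in control cells. Few members moved: 0 were higher and 2 were lower by limma, where 7.52% and 5.87% of all genes were. With replicate number as a block in the fit, 1 was higher and 5 lower, where 8.43% and 7.36% of all genes were. That block pairs CB libraries by number, although the CB groups were not found to be paired. Hnrnpd, also called AUF1, which binds AU-rich elements and promotes mRNA decay, read 6.49, 6.50, 6.23 and 6.32 in siControl CB and 6.13, 6.16, 5.98 and 5.99 in siAPC CB. The siAPC libraries lay below the siControl libraries, and Hnrnpd fell by 0.32 (SE 0.08, adjusted p = 0.00925, limma). Srsf2, an SR protein of exonic enhancers, read 8.04, 8.13, 8.15 and 8.30 in siControl CB and 7.94, 7.90, 7.97 and 7.91 in siAPC CB. It fell by 0.22 (SE 0.07, adjusted p = 0.0361, limma) without overlap. Values of 54 of the 65 members (83.1%) were below 0, where 58.1% of all genes were, with a median of -0.11 against -0.04 for all genes. The call of Srsf2 was lost when any of 6 libraries was left out (replicates 2 and 4 of siControl CB and each of siAPC CB). This left 1 member lower, where 3.28% to 4.49% of all genes were. Without replicate 3 of siControl CB 4 members were lower, where 7.69% of all genes were. Without the 4 GC-trend libraries 3 members were lower, where 8.51% of all genes were. With the GC and length fit removed 10 members were lower, where 14.9% of all genes were, and Hnrnpd lost its call (-0.19, adjusted p = 0.4, limma).

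Within Ps more members were lower after APC knockdown than within CB, although the test of that difference, log2(Diff FC), passed for none of them. With APC knockdown 12 members (18.5%) were lower in Ps and 0 higher by limma, where 11.2% and 10.7% of all genes were. These were 6 hnRNPs (Hnrnpf, Hnrnpul2, Hnrnpd, Hnrnpa1, Hnrnpll and Hnrnpul1), 3 of the U1 and U2 proteins (Snrpa, Sf3b3 and Sf3b2), 2 of the Sm core (Snrpf and Snrpd3) and Prpf19. No SR protein passed, but values of all 12 were below 0 in Ps (median -0.06), where 53.9% of all genes were. In CB all 12 were below 0 too, where 58.1% of all genes were. With the fit on GC content and length removed 2 SR proteins passed as lower in Ps, where 21.9% of all genes did. Among those called, Hnrnpf had the lowest value, -0.35 (SE 0.12, adjusted p = 0.0352, limma), and its siAPC Ps libraries overlapped those of siControl Ps. Hnrnpa3 had a lower value, -0.44, and did not pass (adjusted p = 0.0523, limma). Hnrnpul2, an hnRNP U-like protein, read 6.92, 6.99, 6.99 and 6.96 in siControl Ps and 6.57, 6.77, 6.61 and 6.59 in siAPC Ps. These were apart, and Hnrnpul2 fell by 0.33 (SE 0.05, adjusted p = 0.000196, limma). Hnrnpd read 6.06, 6.16, 5.96 and 6.03 in siControl Ps and 5.65, 5.86, 5.58 and 5.80 in siAPC Ps, a fall of 0.33 (SE 0.08, adjusted p = 0.00476, limma) with no overlap, close to its fall of 0.32 in CB. Hnrnpa1 read 9.27, 9.01, 8.95 and 8.93 in siControl Ps and 8.87, 8.84, 8.73 and 8.50 in siAPC Ps, and fell by 0.30 (SE 0.10, adjusted p = 0.0394, limma) without overlap. The other 8 fell by 0.19 to 0.26.

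The direction of the siAPC comparison in Ps turned with the scaling. Scaled to total listed reads, 0 members were lower and 3 were higher, where 4.23% and 22.6% of all genes were, and the medians were 0.07 over the members and 0.14 over all genes, against -0.09 and -0.02 with the scaling of the authors. With quantile normalization 7 members were lower, where 10.8% of all genes were. Without replicate 2 of siAPC Ps 6 members were lower, where 9.72% of all genes were, a share near the background. Hnrnpf lost its call without any of 4 libraries (replicates 3 and 4 of siControl Ps, replicates 2 and 4 of siAPC Ps), and so did Hnrnpa1 (replicates 1 and 2 of siControl Ps, replicates 3 and 4 of siAPC Ps). Hnrnpul2, Hnrnpd, Hnrnpll and Snrpf kept their calls with any 1 library left out but lost them when scaled to total reads, and Hnrnpd and Snrpf also with the fit on GC content and length removed. Each of the other 8 lost its call in at least 1 such case. When the 4 GC-trend libraries were left out, 13 members were lower, where 14.0% of all genes were. With replicate number as a block in the fit, 14 were lower, where 13.5% of all genes were.

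**Figure D4:**
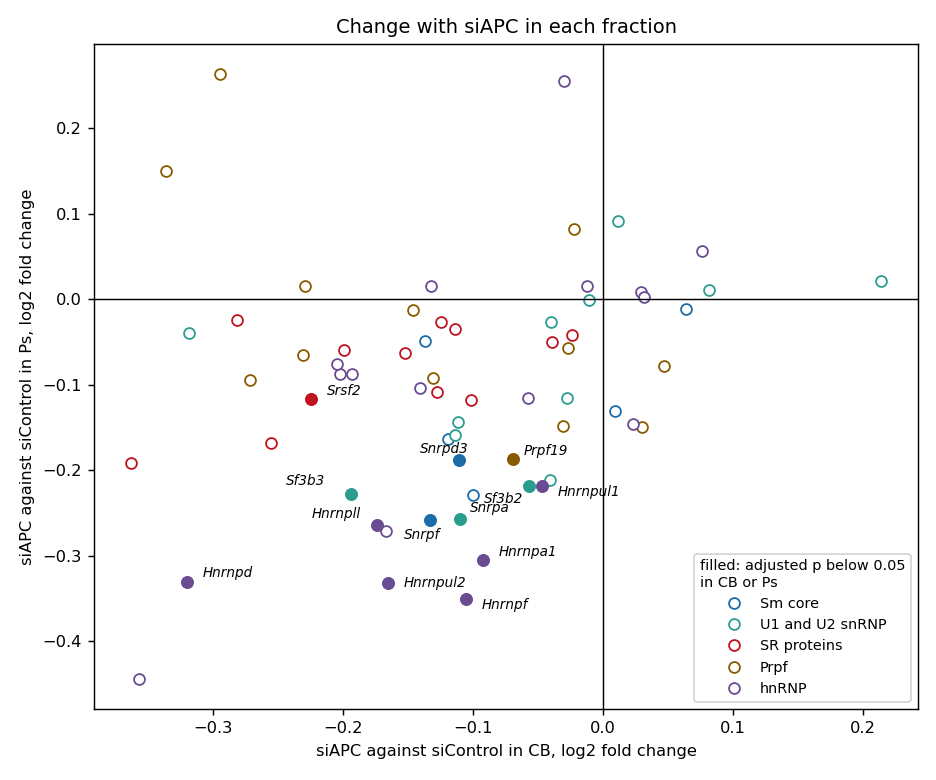
Log2 fold change of siAPC against siControl in Ps (vertical) and in CB (horizontal) for the 65 members by role, filled where limma's adjusted p was below 0.05 in either fraction. All 13 filled points lie below 0 on both axes, and Hnrnpd is the one called in both fractions.

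Of the 82 other splicing genes, 3 were higher and 0 lower with siAPC in CB (Ppih, Sf1 and Ptbp1), and in Ps 6 were higher and 6 lower. These are 3.66% and 0% of the list in CB and 7.32% in either direction in Ps, no more than the shares of all genes given above. Sf1, the branch point binding protein, rose by 0.22 in CB and 0.26 in Ps, and Ptbp1, the polypyrimidine tract binding protein, by 0.30 and 0.25. Rbm17, a U2-associated protein, fell by 0.40 in Ps (adjusted p = 0.000579, limma).

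Promoters were looked at because some members fell together with siAPC. RefSeq promoter sequences (GRCm38.p6) matched 57 of the 65 members and 9170 listed genes, and the 250 bases before the start were searched on both strands for 10 motifs. CCGGAAG, bound by ETS factors, was in 18 of the 57 members (31.6%) and in 1466 of the 9170 genes. CTTTGAT, bound by the TCF factors of Wnt signalling, was in 1 member, Snrpa (1.75%), where 2.69% of all promoters held it. CCAAT was in 49.1% and 41.2% of promoters, GGGCGG in 68.4% and 64.6%, TATAAA in 8.77% and 7.57%, CACGTG in 12.3% and 10.1%, and TGACGTCA in 3.51% and 3.15%. The longer motifs of NRF1, YY1 and BANP were in 2, 0 and 0 members, where 2.00%, 0.6% and 0.992% of all promoters held them. ETS was singled out after these counts were seen, and a match is no evidence of binding. Of the members called lower in Ps with siAPC, Hnrnpd, Hnrnpf, Prpf19, Sf3b2 and Sf3b3 held CCGGAAG. Snrpa, also called lower, has a promoter sequence without it. Members not called lower there, such as Snrpg, Snrpc and Srsf4, held it too. Hnrnpd and Hnrnpf both hold CACGTG as well. A link between a motif and the fall was not tested. For 2 of the members that fell in Ps, Hnrnpd (minus strand, chr5:99979083-99979142) and Hnrnpf (plus strand, chr6:117900264-117900323), a short stretch with the ETS match in capitals is shown for each, read along the gene, where CTTCCGG is the same motif on the other strand.
Hnrnpd: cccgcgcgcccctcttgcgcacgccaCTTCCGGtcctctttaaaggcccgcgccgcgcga
Hnrnpf: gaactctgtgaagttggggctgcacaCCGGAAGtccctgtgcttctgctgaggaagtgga

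Several members share sequence with other genes, and their values are uncertain to that extent. Of 50-base stretches of exonic sequence, 91.0% occurred in another annotated gene for Hnrnpa3, 49.3% for Sf3b4, 49.0% for Hnrnpf, 46.4% for Hnrnpa1, 31.5% for Srsf3, 28.4% for Snrpe and 18.1% for Snrpg, and 13 members had over 20%. Some members overlap exons of a gene on the other strand, such as Srrm2 with Elob, Hnrnpu with Cox20, Srsf1 with Gm11508 and Srsf2 with Mettl23 and Mfsd11. Use of strand in the counting is not given in the sources used here.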

How the data were processed

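RNA from 16 libraries was made into stranded libraries and sequenced as paired reads. The labels call the kit one for total RNA and the methods one for mRNA. The authors aligned reads to mm10 with STAR 2.4.2a and an earlier GENCODE release, took gene counts with Rsubread and then applied limma-voom (limma 3.26.1), as the submitters' processing notes and the methods state. The deposited values are log2 CPM, with 0.5 added to each count, and the genes were filtered on low values by the authors. Reads were recovered from the values by this formula, and 100% of the 208240 came out whole (within 0.01 read), with 0 value columns left unused. Depth was 13466225 to 20296087 reads per library, 3 reads correspond to -2.73 to -1.80 log2 CPM, and replicates differed beyond sampling noise (chi-squared per degree of freedom 2.00 to 26.4).

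Groups came from the labels for fraction and siRNA. The main test was limma 3.58.1 in R 4.3.3 (lmFit and eBayes, trend=TRUE) fitted to the deposited values of all 16 libraries, 1 mean per group and no block, with Benjamini-Hochberg adjustment over 13015 genes and a threshold of 0.05. It was tested on simulated data, and no outcome of that test is given here. The members, roles and lists were chosen with earlier results of these data known. Values by library are given for members taken by rule, though not every group is printed for each. These were the highest and lowest Ps/CB value in each role and up to 3 called members at either end of the siAPC comparisons. The 2 most negative and 2 most positive interactions were added. A mean of at least 1 was required for Ps/CB and the interaction. Hnrnpa1 in the Ps comparison, Apc, Malat1, Neat1 and other members are named beside these. A further member enters every count and fit but is not reported here by name.

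Replicate numbers come from the labels. After the group means were subtracted, libraries with the same number correlated over 0.1 in every pair between siAPC CB and siAPC Ps (mean 0.50 over 10292 genes). They did so too between siControl Ps and siAPC Ps (mean 0.34), and these groups were therefore paired. They did not between siControl CB and siControl Ps (mean 0.13) or between the CB groups (mean -0.03). The main test leaves this pairing out, and the replicate block among the alternatives takes it in. That block was applied to every comparison. It thus also pairs siControl CB with siControl Ps and the CB groups with each other, which were not found paired. Annotation was GENCODE M21 (GRCm38), in which 98.9% of genes and 65 of 65 members matched by symbol. The alternatives were limma-voom weights, scaling to total listed reads, quantile normalization, a filter at a mean of 1, 5 reads added, the replicate block, each replicate or the 4 GC-trend libraries left out, a loess fit on GC content and transcript length (span 0.4) removed, and a fold change above 1.5.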

Additional observations from a re-analysis of the deposited data

Results flagged for a closer look

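The members whose values are given by library made 60 groups of 4 libraries in all. In each, the highest or lowest library was compared with the 95% critical value of Dixon's test (0.829). Of these, 1 stood apart, which chance alone can give at that level. Prpf38b was at 4.08 in siControl CB replicate 3, where the others had 2.47 to 2.66. In that library values fell with GC content (Spearman correlation -0.54), and in siControl CB replicate 1 they rose with it (0.46). The part of this in the value was not tested.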

How the results depend on the processing

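Scaled to total listed reads, 11 members were higher in siControl Ps (median -0.10), the siAPC Ps/CB median was 0.10 and the interaction median 0.12. In the same setting 1 member was lower with siAPC in CB, and in Ps 3 were higher, 0 lower and the median was 0.072. With the loess fit removed, the Ps/CB medians were 0.084 (siControl) and 0.059 (siAPC), 10 members were lower with siAPC in CB and 19 in Ps (median -0.13), where 21.9% of all genes were. Quantile normalization gave 1 member higher in CB, and 7 lower in Ps (median -0.065, 10.8% of all genes), with siAPC. A fold change above 1.5 left 12 higher and 3 lower in siControl Ps, 13 and 4 in siAPC Ps, and 0 lower with siAPC in either fraction. No share of all genes is given at this threshold, so these counts are not compared with the background. The replicate block gave 1 higher and 5 lower with siAPC in CB (8.43% and 7.36% of all genes), 14 lower in Ps (13.5%), 32 higher and 15 lower in siControl Ps (30.5% and 32.5%) and 31 and 15 in siAPC Ps (31.4% and 32.1%). With 1 replicate left out, 1 to 4 members were lower with siAPC in CB, where 3.28% to 7.69% of all genes were. In Ps 6 to 10 were lower, where 9.08% to 11.7% of all genes were, and the members' median was -0.12 to -0.079. Without the 4 GC-trend libraries 13 were lower in Ps, where 14% of all genes were. In sign, 15 of 45 siControl and 10 of 44 siAPC Ps/CB calls turned, all with the loess fit removed or when scaled to total reads, which moves every gene alike, and most without passing. They include Srsf3 (Ps/CB -0.042 with the loess fit removed) and Snrpb (-0.062 scaled to total reads) in siControl. The uncalled interaction of Prpf39 also turned (-0.059 without siControl CB replicate 3, and up to 0.87 without siAPC CB replicate 2). The cause was not tested. Otherwise 239 of the summary values stayed within their bounds and 35 moved. Of the calls, 15 of 45 were kept in all 16 settings for siControl Ps/CB, 19 of 44 for siAPC Ps/CB, 0 of 2 for siAPC in CB and 0 of 12 for siAPC in Ps. The interaction had 0 calls among members in every setting. Prpf39 and Srsf1 had the fewest reads, and the part of depth in their values was not tested.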
